A study of Mus musculus with 8 samples.

Results

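The 31 genes described here were listed together as genes of mitochondrial fatty acid oxidation and ketone handling. The list holds the carnitine shuttle, the acyl-CoA dehydrogenases, enzymes of the later steps of beta-oxidation and the electron transfer flavoprotein branch. It also holds 3 ketone and acetoacetyl-CoA enzymes, and 3 enzymes of acyl-CoA and malonyl-CoA activation and removal. Where each protein lies in the cell was not measured. The genes were chosen by name, and every non-control probe that the array design assigns to one of these names was used. All 31 were measured and passed the filter on dim probes, out of 21742 genes tested. The array carried 40 probes for them, of which 39 were kept, and where a gene had several kept probes the brightest stood for it. The names Dci and Peci are those of the array design for genes now called Eci1 and Eci2.

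Brown adipose tissue of Prdm16 knockout mice was compared with that of wild-type mice on 8 Agilent arrays that read 2 colours, 4 arrays at 6 weeks of age and 4 at 11 months. Each array carried one knockout and one wild-type RNA of the same age, and the knockout was in Cy3 on 2 arrays and in Cy5 on the other 2 at each age. PRDM16 is a transcriptional regulator of brown fat identity. The labels call the 4 replicates of a condition biological ones, and do not state the allele, the tissue in which the gene was deleted, the strain, or whether animals were pooled. No other treatment is stated for any group. The ages were run as separate batches, on different slides and with different versions of the scanner software, so in every comparison of the ages the age cannot be told apart from the batch. Values below are log2 knockout over wild type: 0 is no difference, -1 is a halving in the knockout and 1 a doubling. Values of single arrays are as measured, before the dye effect was taken into account. Fitted values are adjusted for it, over 4 arrays at each age, and are given ± their standard error from limma. That error comes from a single model of 8 arrays, whose estimate of spread is shared by the ages. Each member therefore has the same standard error at both ages, and it is not the spread of either age. Ucp1, for example, has 0.44 at both, with SDs between arrays of 0.30 at 6 weeks and 1.45 at 11 months. A gene is said to be higher or lower where its Benjamini-Hochberg adjusted p over all 21742 genes was below 0.05.

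Fatty acids enter the mitochondrial matrix as carnitine esters, and are then shortened in repeated rounds of dehydrogenation, hydration, a further dehydrogenation and thiolytic cleavage. The first dehydrogenase of each round is specific to a range of chain lengths and passes its electrons through the electron transfer flavoprotein to the respiratory chain. In brown fat this pathway supplies the electrons for uncoupled respiration through UCP1. Ketone bodies reach the same acetyl-CoA pool through their own enzymes.

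The probe for Prdm16 itself was lower by 0.58 ± 0.15 at 6 weeks (adjusted p = 0.0420) and by 0.50 ± 0.15 at 11 months (adjusted p = 0.0372), and whether it lies in a deleted part of the gene is not stated. The arrays read well above background for 61.2% to 68.2% of their spots. Once the shared dye effect was removed, arrays of one age correlated with each other across genes, which are not independent replicates. These correlations were 0.48 to 0.68 at 6 weeks and 0.68 to 0.89 at 11 months. Ucp1, the uncoupling protein of brown fat, had a fitted value of 0.13 ± 0.44 at 6 weeks and was lower by 4.05 ± 0.44 at 11 months (adjusted p = 0.000419).

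Fewer of the oxidation genes passed the test at 6 weeks than at 11 months, where most were lower. At 6 weeks 26 of the 31 fitted values were below 0. At 6 weeks 6 of the 31 were lower, 1 was higher and 24 did not pass the test, where 16.2% of all genes passed it, 7.01% as lower and 9.18% as higher. At 11 months 24 of the 31 were lower, 1 was higher and 6 did not pass, where 34.7% of all genes passed, 16.8% as lower and 17.9% as higher. The median of the 31 fitted values was -0.31 at 6 weeks and -1.05 at 11 months, and the median of all genes was -0.0011 and 0.0082. The 6-week median of the members was -0.10 with arrays centred on their median in place of the loess curve, -0.18 without 6-week array 1, and -0.47 without the 3 arrays whose skeletal muscle signal differed most, named below. In bulk tissue fewer cells of a type and less RNA per cell cannot be told apart. The signs of single arrays show the same contrast: 14 members were below 0 in all 4 arrays at 6 weeks (16.6% of all genes were), and 28 were at 11 months (25.3% of all genes); 2 members were above 0 in all 4 arrays at 6 weeks (17.9% of all genes) and 1 at 11 months (25% of all genes). Called lower at both ages were 5 members (3.44% of all genes), Acads, Etfa, Etfb, Acat1 and Oxct1. Called higher at both was 1 member, Cpt1a (4.34% of all genes), and 0 were called in opposite directions (1.09% of all genes).

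**Figure D1:**
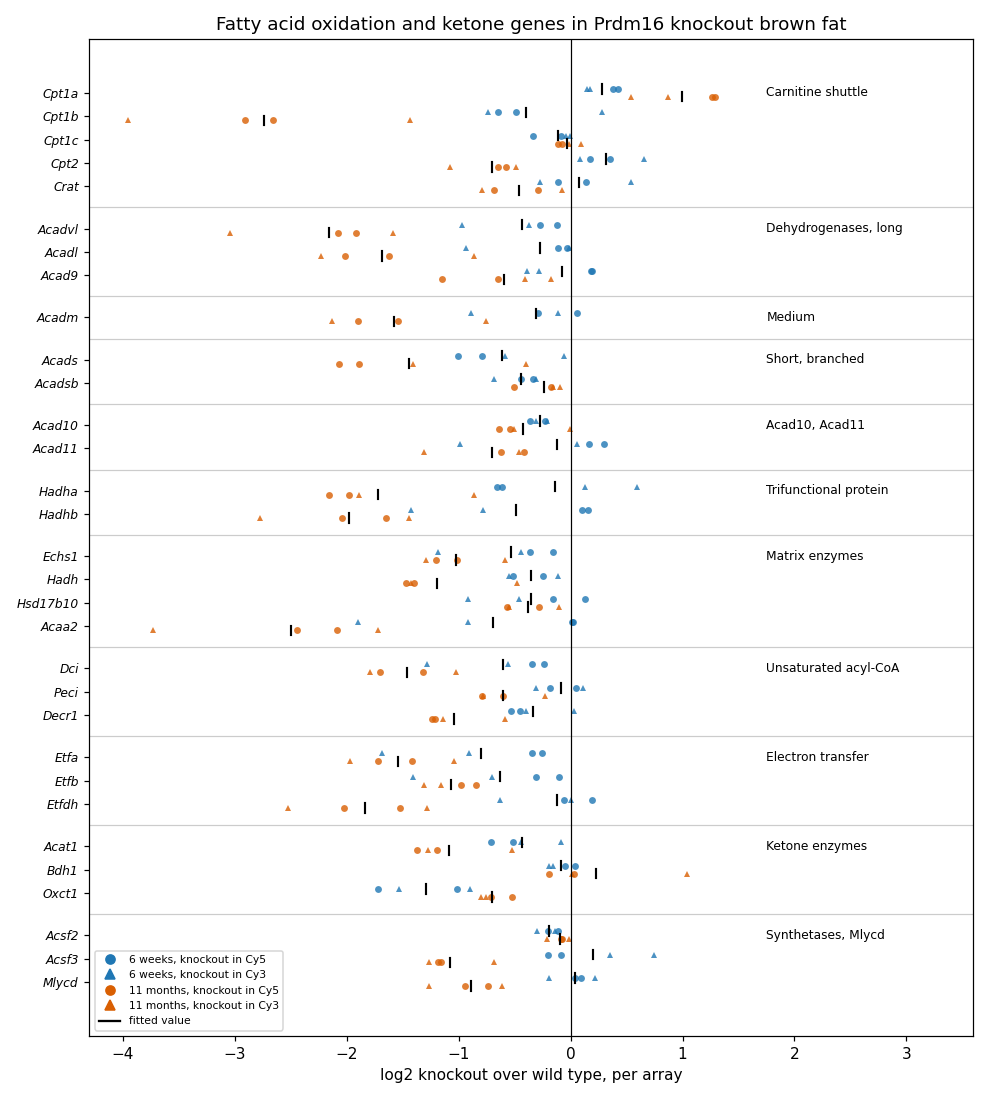
Log2 knockout over wild type of the 31 genes, grouped by role, with 1 point per array (x axis), 4 arrays per age; circles have the knockout in Cy5 and triangles in Cy3, and black ticks are fitted values. At 11 months 29 of the 31 fitted values lie below 0, with Cpt1a and Bdh1 above it, and the fitted value of Oxct1 lies farthest from 0 at 6 weeks.

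The 6-week calls depended on single arrays, other than that of Oxct1. Leaving out 1 array at a time gave between 2 and 16 called members at 6 weeks. The count fell to 2 without 6-week array 1, 3 or 4, to 3 without 6-week array 2 or 11-month array 1 or 2, and rose to 16 without 11-month array 4. The share of all genes that passed also varied, from 5.69% without 6-week array 1 to 19.7% without 11-month array 4. The array enters through the shared estimates of spread and dye effect even when it belongs to the other age. Of the 7 genes called at 6 weeks, only Oxct1 stayed past the threshold in each of these 8 omissions, while 23 of the 25 called at 11 months did; the exceptions there were Acad9 and Acad11. Centring arrays on their median in place of the loess curve left 1 member called at 6 weeks, Oxct1, and 19 at 11 months, where Cpt2, Acad9, Acad10, Acad11, Peci and Oxct1 no longer passed; of all genes 4.36% and 22.6% then passed.

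The carnitine shuttle was split between its members. CPT1 on the outer membrane makes the acylcarnitine and is the controlled step of entry. Cpt1a, the isoform that predominates in liver, read 0.15, 0.17, 0.38 and 0.42 on the 4 arrays at 6 weeks and 1.26, 1.29, 0.54 and 0.87 at 11 months. All 8 values were above 0 and the ages did not overlap. Cpt1a was higher by 0.28 ± 0.07 at 6 weeks (adjusted p = 0.0428) and by 0.99 ± 0.07 at 11 months (1.99-fold, adjusted p = 8.95e-05), and it was the only member called higher at either age; its 6-week call was lost without any one 6-week array, or 11-month array 1 or 2. Cpt1b, the isoform of muscle that brown fat also expresses, read -0.74, 0.28, -0.65 and -0.49 at 6 weeks and -2.66, -2.91, -3.96 and -1.43 at 11 months. Every 11-month array was below every 6-week array. Its fitted value was -0.40 ± 0.35 at 6 weeks (adjusted p = 0.477), and at 11 months it was 6.68-fold lower (-2.74 ± 0.35, adjusted p = 0.000888), the largest change of any member. On every one of the 8 arrays Cpt1a lay above Cpt1b once the dye effect was removed, by a mean of 0.68 at 6 weeks and of 3.73 at 11 months.

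The size of the Cpt1a difference depended on the probe. The gene has 2 kept probes, and the first 30 of their 60 bases are shown because the values of the 2 differ, with those of Cpt1b, whose probes gave like values.
Cpt1a, brighter probe, chr19:3385374-3385433 (mm9): tcttaggactacttgctaacctctgttact
Cpt1a, second probe, chr19:3384060-3384119 (mm9): acagtcccccgaagtcttttgaatcggctc
Cpt1b, brighter probe, chr15:89246836-89246895 (mm9): ttggagagcgctgtccaacctctcatgtgc
Cpt1b, second probe, chr15:89247106-89247165 (mm9): tgctcctctagggcccccgctggaggtggg
The brighter Cpt1a probe starts at base 3941 of the transcript and is printed at 10 spots per array, whose SD within an array was 0.030 to 0.059; the SD between arrays was 0.14 at 6 weeks and 0.36 at 11 months. The second probe starts at base 2627 and read 0.14 ± 0.07 at 6 weeks (adjusted p = 0.209) and 0.30 ± 0.07 at 11 months (adjusted p = 0.0120 over all 26853 kept probes). It was above 0 on all 8 arrays, but its difference between the ages was 0.16 ± 0.10 (adjusted p = 0.281), against 0.71 ± 0.11 for the brighter one (adjusted p = 0.00552). Both Cpt1b probes were lower at 11 months, the second by 2.42 ± 0.31 (adjusted p = 0.000933).

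The other shuttle genes had smaller values. Cpt2, the inner-membrane enzyme that returns the acyl group to CoA, read 0.08, 0.65, 0.17 and 0.35 at 6 weeks and -0.58, -0.64, -1.08 and -0.49 at 11 months. All 4 arrays were above 0 at the first age and all 4 below 0 at the second; the fitted values were 0.31 ± 0.12 (adjusted p = 0.118) and -0.70 ± 0.12 (adjusted p = 0.00362). The second Cpt2 probe was lower at 11 months too (-0.68 ± 0.16), with a difference between the ages that missed the threshold (-0.78 ± 0.23, adjusted p = 0.0558). Crat, which makes acetylcarnitine from acetyl-CoA, was below 0 in all 4 arrays at 11 months (-0.07 to -0.79) and narrowly missed the threshold (-0.46 ± 0.16, adjusted p = 0.0550). Cpt1c, the neuronal isoform, had fitted values of -0.12 ± 0.06 and -0.03 ± 0.06, neither past the test. Its background-subtracted signal was low, with group medians from 45 to 75, near the offset of 50 added in processing. Its values are therefore not a well-measured absence of change. Slc25a20, the carrier that moves acylcarnitines through the inner membrane and is not a member, had a fitted value of -0.19 ± 0.19 at 6 weeks and was lower by 2.01 ± 0.19 at 11 months (adjusted p = 0.000198); it was added to the text after its values were seen.

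Among the acyl-CoA dehydrogenases the enzymes for straight chains of every length were lower at 11 months. Acadvl, the membrane-bound enzyme for very long chains, read -0.97, -0.38, -0.28 and -0.12 at 6 weeks and -1.92, -2.08, -3.04 and -1.59 at 11 months, with no overlap between the ages. It was 4.46-fold lower at 11 months (-2.16 ± 0.21, adjusted p = 0.000235). Acadl, for long chains, read -0.94, -0.01, -0.11 and -0.04 at 6 weeks and -1.62, -2.02, -2.23 and -0.87 at 11 months. Arrays 2 to 4 sat near 0 at 6 weeks, and array 1 lay apart from them, close to the smallest 11-month value. Its fitted value at 11 months was -1.68 ± 0.24 (3.21-fold lower, adjusted p = 0.00134). Acadm, for medium chains, read -0.89, -0.12, -0.29 and 0.06 at 6 weeks and -1.54, -1.90, -2.13 and -0.76 at 11 months, and was 2.99-fold lower there (-1.58 ± 0.23, adjusted p = 0.00159).

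The short-chain enzyme stood out for its 6-week value. Acads read -0.58, -0.06, -1.01 and -0.79 at 6 weeks and -1.89, -2.07, -1.41 and -0.39 at 11 months, and the ages overlapped. It was lower at both ages, by 0.61 ± 0.17 (adjusted p = 0.0468) and by 1.44 ± 0.17 (adjusted p = 0.000572); the 6-week call was lost when any one 6-week array, or 11-month array 1 or 2, was left out. Acadsb, which acts on the branched short-chain product of isoleucine, had its larger fitted value at 6 weeks. It read -0.68, -0.31, -0.34 and -0.44 at 6 weeks and -0.17, -0.51, -0.10 and -0.16 at 11 months, below 0 on all 8 arrays. It was lower at 6 weeks by 0.44 ± 0.09 (adjusted p = 0.0179, lost without 6-week array 1 or 4) and did not pass at 11 months (-0.24 ± 0.09, adjusted p = 0.0773). The difference between its ages was 0.21 ± 0.13 (adjusted p = 0.291).

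The dehydrogenases were also set side by side within single arrays, from the longest chains to the shortest, leaving out Acad9, whose 11-month value is given below and lies above those of Acadvl, Acadl, Acadm and Acads. With the dye effect removed, Acadvl lay below Acadl in 4 of 4 arrays at 11 months, by a mean of 0.47 (SD 0.18). Acadl lay below Acadm in 4 of 4, by a mean of only 0.10 (SD 0.018). Acadm lay below Acads in 3 of 4, by a mean of 0.14 (SD 0.17), a step within the spread of the arrays. Acads lay below Acadsb in 4 of 4, by a mean of 1.21 (SD 0.45), the largest of these steps. At 6 weeks Acadvl lay below Acadl in 3 of 4 arrays, by a mean of 0.16 (SD 0.21), and Acads below Acadsb in 3 of 4, by a mean of 0.17 (SD 0.15). Acads lay below Acadm in 4 of 4, by a mean of 0.30 (SD 0.12), and below Acadvl in 4 of 4, by a mean of 0.18 (SD 0.11), and Acadl lay below Acadm in 2 of 4. With the dye effect removed, Acads thus lay below Acadvl on every 6-week array and above it on every 11-month array. As measured, the 6-week order divided by dye orientation. Acads lay above Acadvl on 6-week arrays 1 (-0.58 against -0.97) and 2 (-0.06 against -0.38), and above Acadm on the same arrays. It lay below both on 6-week arrays 3 and 4. The 6-week order of these genes therefore rests on the dye adjustment. The smallest p that an exact two-sided sign-flip test on 4 arrays allows is 0.125, so these orders are given as counts. These are ratios within a gene set side by side, not levels of different genes.

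**Figure D2:**
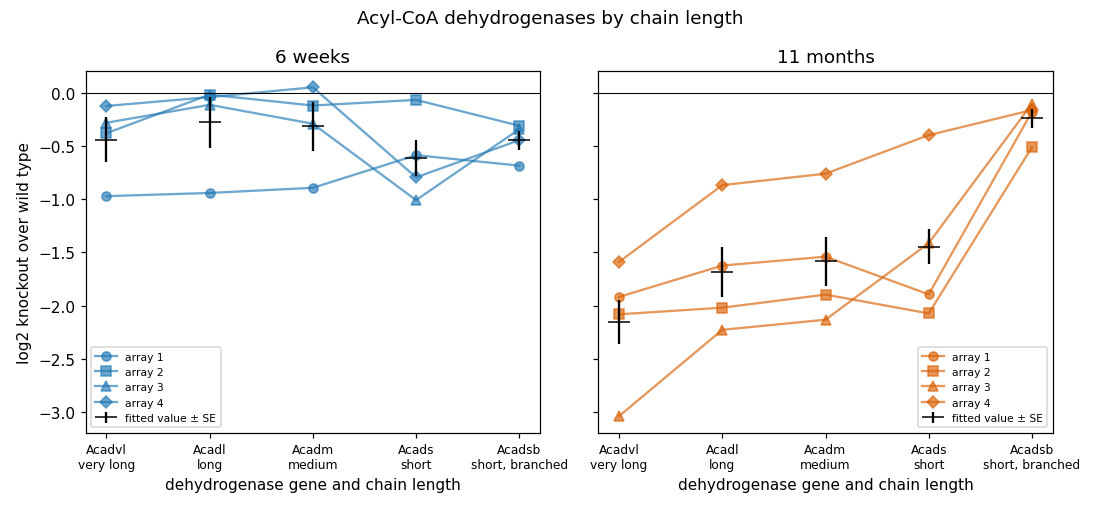
Log2 knockout over wild type (y axis) of 5 acyl-CoA dehydrogenases in order of the chain length they act on, 1 line per array and 4 arrays per age, values as measured; black marks are fitted values ± SE. At 11 months Acadvl is the lowest and Acadsb the highest of the 5 on every array, the lines of arrays 1 and 2 dip from Acadm to Acads, and at 6 weeks array 1 lies apart for the first 3 genes.

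The remaining 3 dehydrogenases had smaller values. Acad9, which also serves in the assembly of respiratory complex I, was lower at 11 months by 0.59 ± 0.17 (adjusted p = 0.0276), with array values of -0.17 to -1.15. Acad11 was lower by 0.70 ± 0.18 (adjusted p = 0.0209) and Acad10 by 0.43 ± 0.09 (adjusted p = 0.00843). None of the 3 passed at 6 weeks. The Acad9 call was lost without 11-month array 1, 2 or 4 (adjusted p = 0.0970, 0.111 and 0.0528), and the Acad11 call without 11-month array 1, 2 or 3 (adjusted p = 0.0720, 0.0962 and 0.0878).

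The trifunctional protein carries out the last 3 steps of each round for long chains, with the alpha subunit from Hadha and the beta subunit from Hadhb. The genes lie head to head on chromosome 5, Hadha on the minus strand and Hadhb on the plus strand, with 272 bases between their starts in RefSeq's GRCm38.p6 annotation. The 250 bases before the start of Hadhb are shown because 228 of them, in capitals, also lie within the 250 bases before the start of Hadha, on the other strand.
Hadhb, chr5:30155003-30155252, plus strand (GRCm38.p6): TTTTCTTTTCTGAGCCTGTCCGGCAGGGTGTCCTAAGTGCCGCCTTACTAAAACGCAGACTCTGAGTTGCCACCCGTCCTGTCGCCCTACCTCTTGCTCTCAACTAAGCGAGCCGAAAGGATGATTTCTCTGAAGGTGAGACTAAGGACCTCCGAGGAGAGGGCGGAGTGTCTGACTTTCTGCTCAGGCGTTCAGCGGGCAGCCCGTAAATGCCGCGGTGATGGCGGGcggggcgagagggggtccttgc
The pair fell by similar amounts at 11 months. Hadha read 0.13, 0.60, -0.66 and -0.62 at 6 weeks and -1.98, -2.16, -1.89 and -0.86 at 11 months, and was 3.30-fold lower at 11 months (-1.72 ± 0.16, adjusted p = 0.000190). Hadhb read -1.43, -0.79, 0.10 and 0.16 at 6 weeks and -1.65, -2.04, -2.78 and -1.45 at 11 months, and was 3.94-fold lower (-1.98 ± 0.23, adjusted p = 0.000611). For both genes the 6-week arrays divided by dye orientation, in opposite directions: Hadha was above 0 where the knockout was in Cy3, and Hadhb where it was in Cy5. Neither passed at 6 weeks (-0.14 ± 0.16 and -0.49 ± 0.23), and for both every 11-month array lay below every 6-week array. With the dye effect removed Hadha exceeded Hadhb by a mean of 0.26 (SD 0.40) at 11 months, less than the spread between arrays.

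A search of the same windows for 2 motifs of nuclear receptors found none among the members. Promoters were given for 25 of the 31 genes, with 26 windows of 250 bases before the start. Neither TNAAGGTCA, the element of estrogen-related receptors, nor AGGTCANAGGTCA, the direct repeat bound by PPAR with RXR, was present on either strand of any of them; the first occurs in 1.14% and the second in 0.0335% of all 32851 windows of this length. No match says only that these letters are not in this window. The member windows had a median of 59.2% G and C bases (44% to 79.6%) and 13 CpG pairs, against 52.4% and 6 over all windows.

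The soluble matrix enzymes complete the rounds for shorter chains. Acaa2, the medium-chain thiolase, read -1.90, -0.92, 0.01 and 0.02 at 6 weeks and -2.09, -2.45, -3.73 and -1.72 at 11 months. Its 6-week arrays again divided by dye orientation, and replicate spots of its probe within an array had an SD of at most 0.099. It was 5.65-fold lower at 11 months (-2.50 ± 0.32, adjusted p = 0.000823), second to Cpt1b, and did not pass at 6 weeks (-0.70 ± 0.32, adjusted p = 0.171). Hadh, the short-chain hydroxyacyl dehydrogenase, read -1.47, -1.40, -1.43 and -0.48 at 11 months and was lower by 1.19 ± 0.16 (adjusted p = 0.000934). Echs1, the short-chain hydratase, was lower by 1.02 ± 0.17 (adjusted p = 0.00281). Hsd17b10, a hydroxyacyl dehydrogenase of isoleucine breakdown that is also a subunit of mitochondrial RNase P, did not pass at either age (-0.35 ± 0.15 and -0.38 ± 0.15).

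The enzymes that prepare unsaturated chains were all lower at 11 months and none was called at 6 weeks. Dci, an enoyl-CoA isomerase, read -1.28, -0.56, -0.35 and -0.24 at 6 weeks and -1.32, -1.71, -1.79 and -1.03 at 11 months, below 0 throughout. Its fitted values were -0.61 ± 0.18 (adjusted p = 0.0544) and -1.46 ± 0.18 (adjusted p = 0.000668). Decr1, the dienoyl-CoA reductase, was lower at 11 months by 1.05 ± 0.10 (adjusted p = 0.000229), and its second probe by 0.77 ± 0.13; at 6 weeks the probes differed in sign (-0.34 ± 0.10 and 0.11 ± 0.13) and neither passed. Peci, the other isomerase, was lower by 0.60 ± 0.11 (adjusted p = 0.00444).

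All 3 electron transfer genes were lower at 11 months, and Etfa and Etfb were also called at 6 weeks. ETFA and ETFB form the flavoprotein that collects electrons from the dehydrogenases, and ETFDH passes them to ubiquinone. Etfa read -1.69, -0.91, -0.26 and -0.34 at 6 weeks and -1.42, -1.72, -1.97 and -1.04 at 11 months. Etfb read -1.40, -0.70, -0.31 and -0.11 at 6 weeks and -0.85, -0.98, -1.31 and -1.16 at 11 months. Both were below 0 on all 8 arrays, with the ages overlapping, and both were called lower at both ages: Etfa by 0.80 ± 0.21 (adjusted p = 0.0426) and 1.54 ± 0.21 (adjusted p = 0.00126), and Etfb by 0.63 ± 0.13 (adjusted p = 0.0171) and 1.07 ± 0.13 (adjusted p = 0.000569). The second Etfa probe gave -0.80 ± 0.19 and -1.57 ± 0.19. The 6-week call of Etfa was lost without any one 6-week array or 11-month array 1, 2 or 3, and that of Etfb without 6-week array 3. Etfdh read -0.63, 0.00, -0.06 and 0.19 at 6 weeks and -1.52, -2.02, -2.53 and -1.28 at 11 months, with no overlap. It did not pass at 6 weeks (-0.12 ± 0.20, adjusted p = 0.714) and was 3.57-fold lower at 11 months (-1.84 ± 0.20, adjusted p = 0.000407). With the dye effect removed, Etfdh lay above Etfb in 4 of 4 arrays at 6 weeks, by a mean of 0.51 (SD 0.085), and below it in 4 of 4 at 11 months, by a mean of 0.77 (SD 0.48).

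The ketone enzymes held the largest 6-week change of the 31 genes. Oxct1, the transferase that activates acetoacetate so that ketone bodies can be burned, read -1.53, -0.90, -1.01 and -1.72 at 6 weeks and -0.52, -0.72, -0.80 and -0.75 at 11 months. All 8 arrays were below 0, and all 4 at 11 months were closer to 0 than any at 6 weeks. It was 2.45-fold lower at 6 weeks (-1.29 ± 0.14, adjusted p = 0.00216) and 1.62-fold lower at 11 months (-0.70 ± 0.14, adjusted p = 0.00602). The difference between the ages was 0.59 ± 0.19 and did not pass (adjusted p = 0.0721), other than without 6-week array 2 (0.75 ± 0.17, adjusted p = 0.0423). With single arrays left out the 6-week value ranged from -1.45 to -1.12.

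Acat1, the mitochondrial acetoacetyl-CoA thiolase, was lower at both ages. It read -0.44, -0.08, -0.71 and -0.51 at 6 weeks and -1.20, -1.37, -1.27 and -0.52 at 11 months, with fitted values of -0.44 ± 0.12 (adjusted p = 0.0457) and -1.09 ± 0.12 (adjusted p = 0.000432). The 6-week call was lost without any one 6-week array, or 11-month array 1 or 2. With the dye effect removed, Oxct1 lay below Acat1 in 4 of 4 arrays at 6 weeks, by a mean of 0.86 (SD 0.40), and above it in 3 of 4 at 11 months, by a mean of 0.39 (SD 0.30). Bdh1, which interconverts acetoacetate and beta-hydroxybutyrate, did not pass at either age (-0.09 ± 0.17 and 0.22 ± 0.17). Its 11-month arrays read 0.03, -0.19, 0.01 and 1.04, and without the fourth its fitted value was -0.059 ± 0.075. The probe was well above background in 11 of 16 channel measurements, so it is the most weakly measured member.

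The enzymes of malonyl-CoA were lower at 11 months. Mlycd removes malonyl-CoA, the inhibitor of CPT1, and Acsf3 activates malonate. Mlycd read -0.19, 0.22, 0.04 and 0.09 at 6 weeks and -0.74, -0.95, -1.27 and -0.61 at 11 months, and was lower at 11 months by 0.89 ± 0.11 (adjusted p = 0.000771). Acsf3 read 0.35, 0.74, -0.20 and -0.09 at 6 weeks and -1.16, -1.19, -1.27 and -0.69 at 11 months, and was lower by 1.07 ± 0.12 (adjusted p = 0.000440). For both genes no 11-month array reached the lowest 6-week array. Acsf2, an acyl-CoA synthetase for medium chains, did not pass at either age by its brighter probe (-0.19 ± 0.06 and -0.10 ± 0.06), while its second probe was lower at 11 months by 0.30 ± 0.08 (adjusted p = 0.0221).

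The change between the ages was tested gene by gene as the difference of the knockout effects. Of the 31 genes 15 were lower at 11 months relative to 6 weeks, 1 was higher and 15 did not pass, where 18.2% of all genes passed, 9.71% as lower and 8.46% as higher. The 15 were Cpt1b, Cpt2, Acadvl, Acadl, Acadm, Acads, Hadha, Hadhb, Hadh, Acaa2, Decr1, Etfdh, Acat1, Acsf3 and Mlycd, and the gene that was higher was Cpt1a. The median difference was -0.71 for the members and 0.0054 for all genes. In 9 members every 11-month array lay below every 6-week array (10.5% of all genes), in 2, Cpt1a and Oxct1, above (9.02%), and in 20 the ages overlapped. Leaving out 1 array at a time left between 8 and 21 members past the test: 9 without 6-week array 2, 3 or 4 or 11-month array 1 or 3, and 8 without 11-month array 2, while 9.74% to 14.8% of all genes passed. Cpt1a, Cpt2, Acadvl, Hadha, Decr1, Etfdh, Acsf3 and Mlycd passed in each of these omissions. Where arrays were centred on their median in place of the loess curve, the difference passed only for Etfdh (-1.85 ± 0.37, adjusted p = 0.0488). In that setting 2.54% of all genes passed, and the median difference of the members was -0.86.

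**Figure D3:**
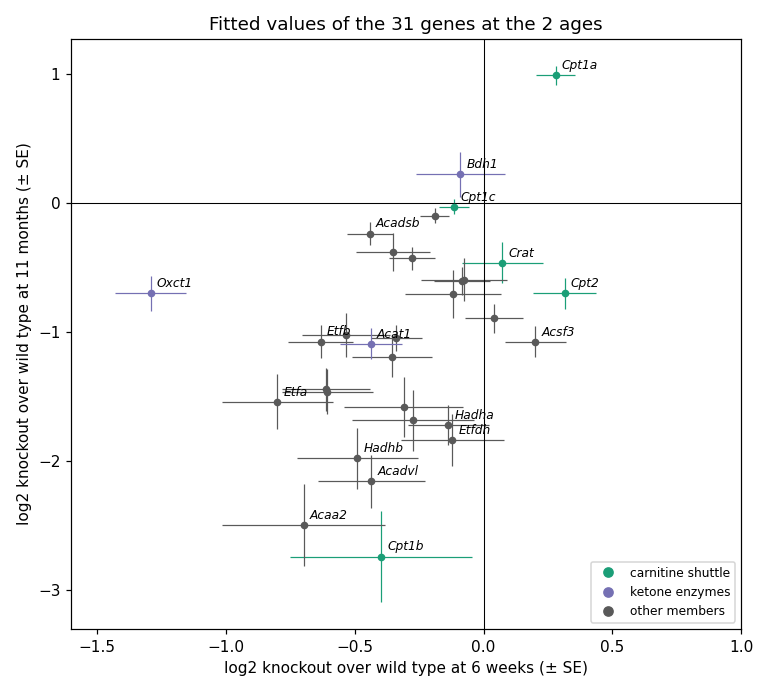
Fitted log2 knockout over wild type of each of the 31 genes at 6 weeks (x axis) and 11 months (y axis), with SE bars from the model of 8 arrays. On the x axis 26 of the 31 genes lie below 0 (median -0.31), and on the y axis 29 do (median -1.05). Cpt1a lies above 0 on both, and Oxct1 has the lowest 6-week value.

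Members followed each other across the 8 arrays to different degrees. The correlation of a member with the median of the other members, after the dye effect was removed, was 0.997 for Acadl, 0.987 for Acaa2 and 0.984 for Hadhb and Acadm. It was -0.78 for Cpt1a, -0.54 for Oxct1, -0.62 for Cpt1c, -0.26 for Acadsb, -0.13 for Acsf2, -0.02 for Bdh1 and 0.16 for Hsd17b10. These are descriptions over 8 arrays whose main contrast is the pair of ages. Of 21457 genes outside the lists compared in the same way, the closest to the median of the members were Ndufc2 (r = 0.995) and Ndufv1 (r = 0.994), subunits of respiratory complex I, the models LOC675851 and ENSMUST00000111318, and Coq9 (r = 0.992), a protein of ubiquinone synthesis.

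The pathways that feed on or into these genes are given by their counts. Among all genes tested, 7.01% were lower and 9.18% higher at 6 weeks, and 16.8% lower and 17.9% higher at 11 months. Several counts in this paragraph and the next are near or below these shares. All 17 genes of the tricarboxylic acid cycle were lower at 11 months and 4 were lower at 6 weeks, with medians of -1.65 and -0.47; Sucla2, a subunit of succinyl-CoA synthetase, was lower by 2.48 ± 0.25 at 11 months. The 17 genes of peroxisomal beta-oxidation, which shortens very long chains in another organelle, split: 6 were higher and 4 lower at 6 weeks, and 2 higher and 8 lower at 11 months, with medians of 0.21 and -0.31. Acox2, an oxidase of branched chains, was higher by 1.80 ± 0.23 at 6 weeks, and Phyh, which starts alpha-oxidation, was lower by 0.90 ± 0.18 and by 1.60 ± 0.18. Of 13 tested genes that bring fatty acids to mitochondria or control that step, 6 were higher and 0 lower at 6 weeks, and 2 were higher and 7 lower at 11 months. Slc27a1, a fatty acid transport protein, was higher at both ages (1.10 ± 0.054 and 1.31 ± 0.054), and Acaca, which makes malonyl-CoA, was higher at 6 weeks (1.27 ± 0.27). Fabp3, a fatty acid binding protein, was lower at 11 months (-3.37 ± 0.73), as was Acsl5, an acyl-CoA synthetase (-2.74 ± 0.35). Whether the lists differ from each other was not tested.

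Among 6 tested partners and other dehydrogenases of the electron transfer flavoprotein, 1 was lower at 6 weeks and 4 at 11 months, and none was higher at either age. Etfrf1, a regulator of the flavoprotein, was lower by 1.36 ± 0.14 at 11 months and did not pass at 6 weeks (-0.32 ± 0.14). Of 19 regulators of fatty acid oxidation, 3 were higher and 3 lower at 6 weeks, and 3 higher and 10 lower at 11 months. Ppara, the nuclear receptor that controls many of the member genes in liver, was lower at 11 months by 2.09 ± 0.44, Pdk4, the kinase that restrains pyruvate oxidation, by 2.43 ± 0.41, and Sirt3, the mitochondrial deacetylase, by 0.59 ± 0.16 at 6 weeks and 1.84 ± 0.16 at 11 months. Esrrb, an estrogen-related receptor, was higher at 6 weeks by 1.95 ± 0.14. Of 6 tested genes of ketone synthesis and transport, 1 was higher at 6 weeks, Aacs, a cytosolic acetoacetate activator (1.10 ± 0.16), and at 11 months Slc16a7 was higher (0.71 ± 0.14) and Slc16a1 lower (-0.31 ± 0.08), both carriers of ketone bodies and lactate.

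The counts of called markers differed between cell types. Of all genes, 7.01% were called lower and 9.18% higher at 6 weeks, and 16.8% lower and 17.9% higher at 11 months. Not every count below exceeds these shares. Of 14 brown adipocyte markers, 3 were lower at 6 weeks and 11 at 11 months (median -2.25), and their summed signal was 0.0515% to 0.322% of all signal in the knockout and 0.989% to 1.31% in the wild type at 11 months. White adipocyte markers were higher at both ages, 5 of 7 tested at 6 weeks (median 2.06) and 6 of 7 at 11 months (median 1.93). General adipocyte markers were higher for 5 of 10 at 6 weeks and 8 of 10 at 11 months. Of 8 fibroblast markers 0 passed at 6 weeks and 6 were higher at 11 months. Of 9 macrophage markers 1 was higher and 1 lower at 6 weeks and 5 were higher at 11 months, and of 9 endothelial markers 3 were lower at 6 weeks and 1 was higher at 11 months. Of 4 tested liver markers 2 were higher and 1 lower at 6 weeks and 2 were higher at 11 months, and the other 4 listed, among them Alb and Ttr, did not pass the filter on dim probes. The part of these shifts in the values of the oxidation genes was not tested.

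Skeletal muscle signal varied between arrays. The median of 25 muscle markers was 0.03, -2.65, 1.69 and -2.91 on the 6-week arrays and -0.54, -1.19, -0.26 and 1.72 on the 11-month arrays, and 0 of the 25 passed the test at either age. Their summed signal was 0.0181% to 0.0383% of all signal in the knockout and 0.0157% to 0.176% in the wild type at 6 weeks, and 0.0925% to 0.818% and 0.0915% to 0.511% at 11 months. The median of the 31 members was -0.58, -0.12, -0.20 and -0.12 on the 6-week arrays and -1.01, -1.19, -1.27 and -0.59 on the 11-month arrays. The 11-month array with the highest muscle median had the member median closest to 0. At 6 weeks this did not hold: array 3, with the highest muscle median, had a member median farther from 0 than arrays 2 and 4, with the lowest. A link between muscle signal and the members was not tested. Without 6-week arrays 2 and 4 and 11-month array 4, whose muscle medians were farthest from 0, 24 members were lower and 1 higher at 11 months, and 4 were lower at 6 weeks, Oxct1 by 1.27 ± 0.11 (adjusted p = 0.0278), where 22.4% and 3.68% of all genes passed. Cpt1b was then lower by 3.29 ± 0.18 at 11 months (adjusted p = 0.00111). Crat passed the test there (-0.63 ± 0.10, adjusted p = 0.0159), while Acad9 no longer did (-0.62 ± 0.21, adjusted p = 0.104). The 6-week calls also changed in their members. Hadh (adjusted p = 0.0463) and Acaa2 (adjusted p = 0.0447) were gained, and Cpt1a, Acadsb, Etfa, Etfb and Acat1 were lost. This omission leaves only arrays 1 and 3 at 6 weeks, so its 6-week values rest on those. It also keeps 6-week array 3, whose muscle median of 1.69 is close to the 1.72 of the 11-month array left out.

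**Figure D4:**
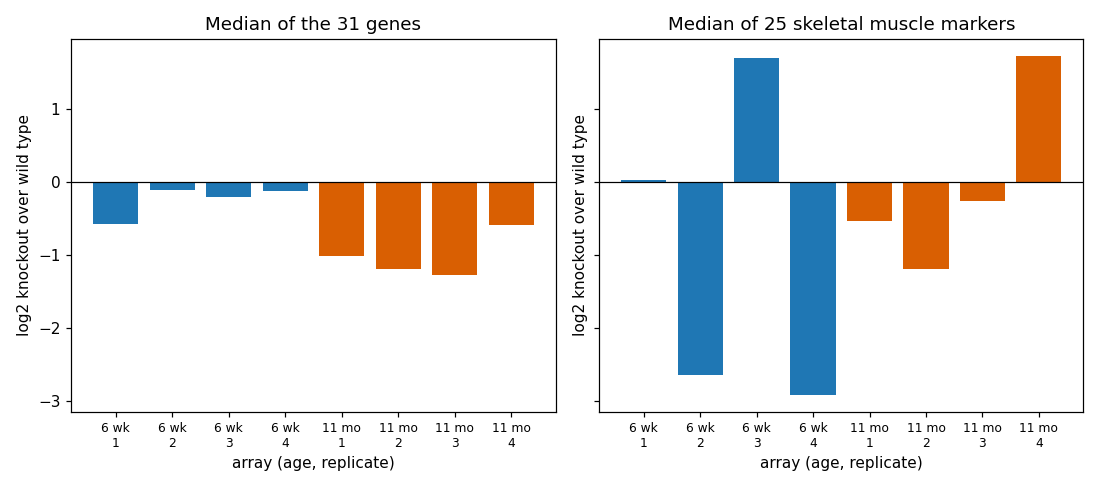
Median log2 knockout over wild type (y axes) of the 31 genes (left) and of 25 skeletal muscle markers (right) on each of the 8 arrays (x axes), 6-week arrays in blue and 11-month arrays in orange, on one scale. The median of the 31 genes is below 0 on every array, from -0.12 to -1.27, while that of the muscle markers runs from -2.91 to 1.72.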

How the data were processed

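Expression was measured on 8 Agilent 2-colour arrays, each with knockout and wild-type brown fat RNA of 1 age, 200 ng per labelling. The deposited scanner tables, per the file headers from Feature Extraction 10.5.1.1 (6 weeks) and 10.10.1.1 (11 months), hold spot and background intensity on a linear scale and a log10 ratio of Cy5 over Cy3. The authors' deposited value table holds log2 ratios. These correlated negatively with the scanner's Cy5 over Cy3 ratio where the knockout was in Cy3, and positively where it was in Cy5. They were therefore read as knockout over wild type on every array, with no change of sign. Their correction and normalization, not given in the sources used here, are unknown, and the submitters' processing notes name limma.

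Intensities were background-corrected (normexp, offset 50) and loess-normalized within arrays with limma 3.58.1 (R 4.3.3), with control spots and outlier spots at weight 0 and outlier spots left out. Replicate spots were averaged. A probe was kept if it was well above background in 4 or more of 16 channel measurements and had values on 3 or more arrays of both ages, which held for 26853 of 39429, and the brightest one stood for a gene. One limma model of 8 arrays held a coefficient per age and a shared dye effect (5 residual degrees of freedom), with Benjamini-Hochberg adjustment over 21742 genes and a threshold of 0.05. P-values measure the spread between arrays, whose number limits the precision. The members and gene lists were chosen with earlier results of these data known. All 31 members are named, with up to 3 called genes of largest change per direction, age and related list as the pool for other names, and the 5 genes most like the member median. Alternatives varied the background correction, normalization, filter, probe rule, dye term, block and arrays. The steps were tested on simulated data. Promoter windows are from RefSeq (GRCm38.p6); probe positions are those of the array design (mm9).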

Additional observations from a re-analysis of the deposited data

Results flagged for a closer look

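In 3 of 62 sets of 4 arrays, 1 array lay far from the other 3, and chance alone gives about 1 in 20 such sets. These were the 6-week value of Acadl on array 1 (-0.94) and the 11-month values on array 4 of Hadh (-0.48) and Decr1 (-0.59).

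The knockout effect differed between the ages by the limma test of the difference in 16 of the 31 genes, where age cannot be told apart from batch. As 11 months minus 6 weeks on the log2 scale, the carnitine shuttle genes gave 0.71 for Cpt1a, -2.34 for Cpt1b and -1.01 for Cpt2. The dehydrogenases gave -1.72 for Acadvl, -1.41 for Acadl, -1.27 for Acadm and -0.83 for Acads. Later steps of the rounds gave -1.59 for Hadha, -1.49 for Hadhb, -0.84 for Hadh, -1.80 for Acaa2 and -0.71 for Decr1. The others were Etfdh at -1.72, Acat1 at -0.65, Acsf3 at -1.27 and Mlycd at -0.93.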

How the results depend on the processing

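The main analysis called 7 members at 6 weeks, 25 at 11 months and 16 in the difference between the ages. At 6 weeks the count was 4 without background correction, 1 with median centring (Oxct1) and 3 with the scanner software's log ratio. Of all genes 15.2%, 4.36% and 10.5% then passed. The count was 4 without the filter on dim probes and 2 without a dye coefficient, where 10.4% and 11.3% of all genes passed. Without the 3 arrays with extreme muscle medians, an alternative chosen after seeing the data, it was 4, where 3.68% of all genes passed. Other settings gave 5 to 9, where 15.3% to 22.6% of all genes passed. At 11 months every setting gave 19 to 28, where 22.4% to 44.1% of all genes passed. Leaving out single arrays gave 23 to 28 there, where 23.1% to 35.2% of all genes passed. The count for the difference was 1 with median centring (Etfdh), where 2.54% of all genes passed against 18.2%. The median of the members was then -0.86 against -0.71. Under the other settings the count for the difference was 13 to 18, where 3.17% to 23.0% of all genes passed. Leaving out single arrays gave 2 to 16 at 6 weeks and 8 to 21 for the difference. Of all genes 5.69% to 19.7% and 9.74% to 14.8% then passed. Median centring moved the median of all genes to 0.072 at 6 weeks and 0.087 at 11 months, and the share of calls that were higher over all genes from 56.7% to 70.0% at 6 weeks, from 51.7% to 70.8% at 11 months and from 46.6% to 59.6% for the difference. The causes were not tested.

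Signs turned in members that were not called. At 6 weeks median centring gave 0.14 for Acad9, 0.13 for Acad11, 0.11 for Hadha, 0.17 for Peci, 0.14 for Etfdh and 0.048 for Acsf2, and at 11 months 0.091 for Acsf2. Without the 3 arrays Crat gave -0.19 and Mlycd -0.074 at 6 weeks, Bdh1 -0.056 at 11 months and Hsd17b10 0.029 for the difference. Cpt1c at 11 months gave 0.13 without background correction, 0.30 with the scanner ratio, 0.13 in the deposited table and 0.055 as the mean of its probes, and the mean of probes gave -0.060 for the difference of Acsf2. With single arrays left out the 6-week values ranged from -0.097 to 0.23 for Crat, -0.19 to 0.058 for Acad9, -0.29 to 0.12 for Acad11, -0.15 to 0.024 for Peci, -0.22 to 0.030 for Etfdh and -0.045 to 0.12 for Mlycd. The 11-month value of Bdh1 ranged from -0.059 to 0.35, and the difference of Hsd17b10 from -0.19 to 0.11.

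Same-numbered arrays of the ages hold RNA of mice of different ages. Their deviations from the age means correlated at -0.20 to -0.05, and the numbers were not taken to pair the arrays. With the shared dye effect removed the correlations were 0.17 to 0.46, 3 of 4 numbers being highest with their own, against -0.48 to 0.44 for other numbers; same-numbered arrays also have opposite dye orientation at the ages. Removing each age's own dye effect forces the same-number and other-number values to mirror each other, so it gives no check. With the replicate number as a block, 8, 26 and 17 members were called at 6 weeks, at 11 months and for the difference. Of all genes 19.3%, 35.6% and 19.5% then passed. Array signal limits Bdh1 most.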
